A study of Mus musculus with 27 samples.

Results

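The genes described here are 10 enzymes of the methionine cycle and creatine synthesis: Gnmt, Gatm, Gamt, Mat1a, Ahcy, Bhmt, Cbs, Cth, Pemt and Shmt1. They were taken as a list, and every probe set that the array annotation gives to 1 of them alone was used. Gnmt and Gatm were chosen by their measured levels, which had been seen to differ in Dex livers, so their Dex values are a description and carry no test. The annotation gave 13 probe sets to 8 of the 10 genes, and 12 of these probe sets, covering all 8 genes, passed the filter on dim signals. Expression of Cbs and Cth, the enzymes that turn homocysteine into cysteine, is not analysed here. The whole series holds 8252 genes with a single symbol, of which 5200 had a tested probe set.

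The livers of 27 mice were each profiled on an Affymetrix array of their own. The 3 groups, with 9 mice in each, are named Dex, Veh and Con in the labels, which do not spell the names out and give no strain, sex, age, dose or time. The comparisons were Dex with Veh, Veh with Con and Dex with Con, and any 2 of these comparisons share a group of arrays. Values are intensities that the authors had scaled to a common mean per array.

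In hepatocytes, methionine is converted to S-adenosylmethionine, the donor of most methyl groups. Methyltransferases pass the group to an acceptor and leave S-adenosylhomocysteine, which is cleaved to homocysteine and then either remethylated or turned into cysteine. Creatine synthesis uses this cycle: an amidinotransferase that is abundant in kidney and pancreas makes guanidinoacetate, and a methyltransferase that is abundant in liver turns it into creatine. The liver also spends methyl groups on glycine, through Gnmt, and on phosphatidylcholine, through Pemt.

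Promoters are shown for the 2 genes chosen for their Dex values and for Bhmt, which had the greatest Dex-to-Con change among the other members. Each is the 250 bases before the gene's start in the RefSeq table for GRCm38.p6, read on the minus strand at chr17:46729166-46729415 (Gnmt), chr13:93637759-93638008 (Bhmt) and chr2:122611278-122611527 (Gatm). Capitals mark CCAAT or its reverse complement ATTGG.
Gnmt: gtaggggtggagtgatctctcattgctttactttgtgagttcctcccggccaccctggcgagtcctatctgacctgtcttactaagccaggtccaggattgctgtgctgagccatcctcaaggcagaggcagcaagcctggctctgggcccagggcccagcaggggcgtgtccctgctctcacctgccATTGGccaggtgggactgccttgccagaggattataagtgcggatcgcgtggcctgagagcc
Bhmt: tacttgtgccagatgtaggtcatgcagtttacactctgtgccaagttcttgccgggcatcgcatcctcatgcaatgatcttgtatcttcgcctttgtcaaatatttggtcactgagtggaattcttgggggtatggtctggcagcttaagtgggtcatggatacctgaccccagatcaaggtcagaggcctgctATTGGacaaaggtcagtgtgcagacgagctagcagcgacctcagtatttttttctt
Gatm: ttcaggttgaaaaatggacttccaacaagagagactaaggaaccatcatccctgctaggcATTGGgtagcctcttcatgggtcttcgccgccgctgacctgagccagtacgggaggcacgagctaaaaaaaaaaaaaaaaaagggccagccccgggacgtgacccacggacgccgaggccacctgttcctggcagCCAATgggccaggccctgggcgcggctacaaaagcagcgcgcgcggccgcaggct

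The marked CCAAT box lay at position -62 from the start in Gnmt, at -56 in Bhmt, and at -190 and -55 in Gatm. The RefSeq table matched 8 of the 10 genes, all of them but Mat1a and Cth, with 9 promoters, since Pemt has 2, and CCAAT in either direction was found in 7 of the 9. Over all 32851 mouse promoters of this length, 33.8% hold it. The half-site TGTTCT of the glucocorticoid receptor was found in 0 of the 9 on either strand, against 16.1% of all promoters. The GC box GGGCGG was found in 4 of the 9, against 32.7% of all, and TATAAA in 0 of the 9, against 12.4%. G and C made up 60.4% of the Gnmt window, 48.0% of the Bhmt window and 59.2% of the Gatm window, against a median of 52.4% over all promoters. These counts describe letters in a short window.

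Some livers stood apart before any member was considered. Dex 1, 2 and 3, Veh 2, 4, 5 and 7, and Con 4, 5 and 6 had been set apart from the rest of their groups by other genes in earlier results of these data, and members' changes are given without them where a call, a sign or the size moved. Spearman correlations between arrays ran between 0.833 and 0.938, and no arrays were identical. The log2 ratio of 3' to 5' beta-actin control probes, which grows as RNA degrades or targets shorten, averaged 0.886 ± 0.169 in Dex, 1.27 ± 0.318 in Veh and 0.947 ± 0.243 in Con (SD, n = 9 each). The median probe set changed by -0.03 in Dex against Veh, by -0.19 in Veh against Con and by -0.20 in Dex against Con (log2), while bright probe sets ran the other way against Con. The 223 with a mean log2 intensity over 11, a limit chosen after the values were seen, had medians of 0.06, 0.23 and 0.31 in the same comparisons. With quantile normalization these medians were -0.05, 0.02 and -0.02. Gnmt, Bhmt and Ahcy are among the bright ones, and Pemt lies just under the limit. Values of these genes after quantile normalization are given where they moved.

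Gnmt, which transfers a methyl group from S-adenosylmethionine to glycine, had its highest mean in Dex livers, then in Veh and then in Con. Its intensity (probe set 96828_at) had a lowest value of 4346.6, a median of 7255.1 and a highest value of 11099.4 in Dex livers. The values were 4075.2, 4845.1 and 6218 in Veh livers, and 3215.9, 3614.6 and 5185 in Con livers. All Dex livers except Dex 8 lay above the highest Veh liver and above the highest Con liver, and Dex 4 and Dex 5 were the highest of all. Dex 8 was the lowest Dex liver and lay within the Veh range.

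The mean Gnmt level was 12.84 ± 0.37 in Dex, 12.28 ± 0.21 in Veh and 11.88 ± 0.22 in Con (log2 intensity, SD, n = 9 each). That is a log2 difference of 0.55 ± 0.14 (SE) for Dex against Veh, or 1.47-fold, and of 0.95 ± 0.14 for Dex against Con, or 1.93-fold. The differences were 0.54 and 0.94 without Dex 1, 2 and 3. After quantile normalization they were 0.43 and 0.59. In Veh against Con, which shares the Veh arrays with the comparison that chose the gene, the difference was 0.40 ± 0.14. It did not pass the test (limma adjusted p = 0.0899 over 6784 probe sets), although all 9 Veh livers lay above the Con median, and it was 0.17 (adjusted p = 0.517) after quantile normalization.

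Gatm, the amidinotransferase that makes guanidinoacetate from arginine and glycine, had a lower mean in Dex livers than in both other groups. Its intensity (96336_at) had a lowest value of 17.8, a median of 47.4 and a highest value of 66.9 in Dex livers. The values were 60, 90.9 and 137.9 in Veh livers, and 36.7, 94.8 and 117.7 in Con livers. All 9 Dex livers lay below the Veh median and 7 lay below the lowest Veh liver. The lowest 3 were Dex 3, Dex 2 and Dex 1, the same livers that stood apart on other genes.

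The mean Gatm level was 5.37 ± 0.67 in Dex, 6.50 ± 0.41 in Veh and 6.39 ± 0.53 in Con (log2 intensity, SD, n = 9 each). The difference was -1.13 ± 0.25 for Dex against Veh, 2.19-fold lower, and -1.02 ± 0.25 for Dex against Con, 2.03-fold lower. It was -0.73 ± 0.23 and -0.62 ± 0.23 when Dex 1, 2 and 3 were left out, so part of its size came from these livers. The difference of 0.11 ± 0.25 between Veh and Con did not pass the test (adjusted p = 0.810), and it was -0.0380 without Con 2. The signal is low: the array medians had a mean of 4.64 (log2), and Dex 2 and Dex 3, at 4.52 and 4.15, were below this. Gatm lay above the median of its own array in 8 Dex, 9 Veh and 9 Con livers. In bulk liver, fewer cells of a type and less RNA per cell cannot be told apart.

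**Figure D1:**
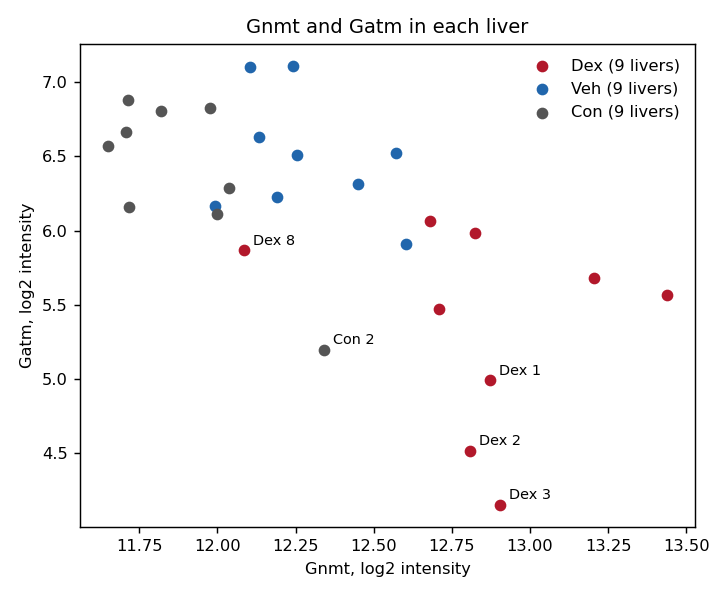
Each point is 1 liver, with the Gnmt log2 intensity on the horizontal axis and the Gatm log2 intensity on the vertical axis, coloured by group (9 Dex, 9 Veh, 9 Con). Dex livers fill the lower right, with Dex 8 as the exception for Gnmt, and Con 2 lies apart from the other Con livers.

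Within a group the levels of Gnmt and Gatm were not clearly tied to each other. Pearson's r was -0.17 in Dex (rho -0.37), -0.35 in Veh (rho -0.23) and -0.75 in Con (rho -0.52), with 9 livers each. Exact permutation p-values, two-sided and adjusted over the 3 groups, were 0.650, 0.524 and 0.0764 for r, and 0.504, 0.552 and 0.485 for rho. Without the 2 livers farthest from the Gnmt median, r was -0.09, -0.04 and -0.16. In Con, Con 2 had both the highest Gnmt and the lowest Gatm, and r was -0.31 without it.

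Among the 6 members that were not chosen for their change, 0 passed the limma test in Dex against Veh, where 0.265% of all probe sets did (18 of 6784). At an unadjusted p under 0.05 there were 0 of the 6, against 15.2% of all probe sets. Their median change was 0.07, against -0.03 over all probe sets, and -0.0112 after quantile normalization. In Veh against Con 0 of the 6 passed, where 3.86% of all probe sets did, 5 of the 6 had an unadjusted p under 0.05, against 23.6% of all, and the median change was 0.35 against -0.19 over all. Of these 5, Mat1a was lower in Veh and the others were higher. After quantile normalization the members' median was 0.17. The changes of the 5 were then 0.26 ± 0.18 for Gamt, -0.76 ± 0.47 for Mat1a and 0.48 ± 0.25 for Bhmt (SE). For Pemt and Shmt1 they were 0.069 ± 0.11 and 0.68 ± 0.22. Of the 262 probe sets called there, 30.9% were higher in Veh, and 52.9% of 85 after quantile normalization. In Dex against Con 2 of the 6 passed, Bhmt and Pemt, both higher in Dex. There 16.4% of all probe sets passed and 3.26% were called higher. Bhmt is among the 223 bright probe sets, of which 28.7% were called higher, and Pemt lies just under their limit. The 6 mix bright and dimmer genes, so neither share alone is the one to set beside 2 of 6. At an unadjusted p under 0.05 there were 4 of the 6, against 31.5% of all probe sets. The members' median change was 0.34 against -0.20 over all, and 0.11 after quantile normalization.

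**Figure D2:**
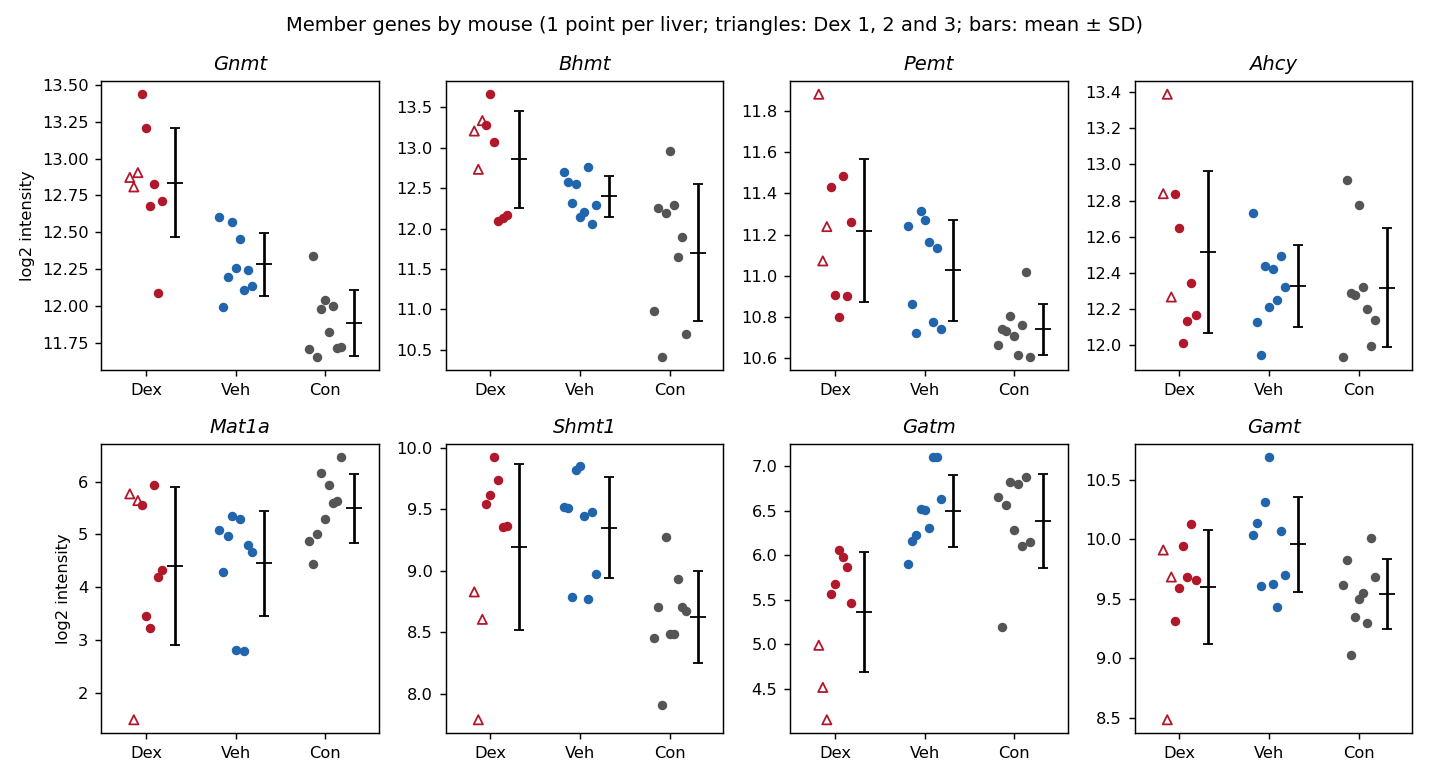
Log2 intensity of the 8 measured genes in each liver (1 point per liver; Dex, Veh and Con from left to right; open triangles are Dex 1, 2 and 3), with the group mean and SD beside the points. Axes differ between genes, because levels of different probe sets cannot be compared. All Dex livers except Dex 8 are above the Veh livers for Gnmt, and Dex 1, 2 and 3 are the lowest Dex livers for Gatm and Shmt1.

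Bhmt remethylates homocysteine to methionine with betaine, and it rose in Dex livers against Con livers. Its intensity (94049_at) had a lowest value of 4361.4, a median of 8623.2 and a highest value of 12930.6 in Dex livers. The values were 4251, 5083.6 and 6916.4 in Veh livers, and 1363.1, 3810.8 and 7976.8 in Con livers. The Dex livers fell into separate levels: Dex 7, 8 and 9 lay within the Veh range, as did Dex 2, while the other 5 were above every Veh and Con liver. All 9 Dex livers and all 9 Veh livers lay above the Con median.

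The Dex-to-Con change of Bhmt was 1.15 ± 0.27, or 2.22-fold (95% interval 0.61 to 1.69, limma adjusted p = 0.00572), and 1.35 relative to the median probe set. It passed without Dex 1, 2 and 3 (1.03, adjusted p = 0.0416) and after quantile normalization (0.84, adjusted p = 0.0340). The changes of 0.45 ± 0.27 in Dex against Veh (adjusted p = 0.411) and 0.70 ± 0.27 in Veh against Con (0.115) did not pass, and were 0.36 and 0.48 after quantile normalization. Con livers varied most, with an SD of 0.84 against 0.59 in Dex and 0.25 in Veh, and without Con 4, 5 and 6 the Veh-to-Con change was 1.08 (adjusted p = 0.0328). A second, dimmer Bhmt probe set (161404_at) gave a Dex-to-Con change of -0.23 (adjusted p = 0.606). Across livers the deviations of both probe sets from their group means had r = 0.26 (permutation p adjusted over 5 same-gene pairs = 0.210).

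Pemt, which methylates phosphatidylethanolamine to phosphatidylcholine, also rose in Dex livers against Con livers. Its intensity (94987_at) had a lowest value of 1781.4, a median of 2416.3 and a highest value of 3771.4 in Dex livers. The values were 1691.5, 2246.4 and 2546.7 in Veh livers, and 1558.2, 1703.5 and 2071.9 in Con livers. All 9 Dex livers were above the Con median, 6 were above the highest Con liver, and Dex and Veh overlapped widely. The change was 0.48 ± 0.13, or 1.39-fold (adjusted p = 0.0127), and 0.68 relative to the median probe set. It was 0.23 after quantile normalization (adjusted p = 0.172), 0.39 without Dex 1, 2 and 3 (0.0664) and 0.46 without Con 4, 5 and 6 (0.0526), so the call was lost in each. The changes of 0.19 in Dex against Veh (adjusted p = 0.471) and 0.29 in Veh against Con (0.173) did not pass. The first was 0.10 without Dex 1, 2 and 3, and the second 0.069 after quantile normalization.

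**Figure D3:**
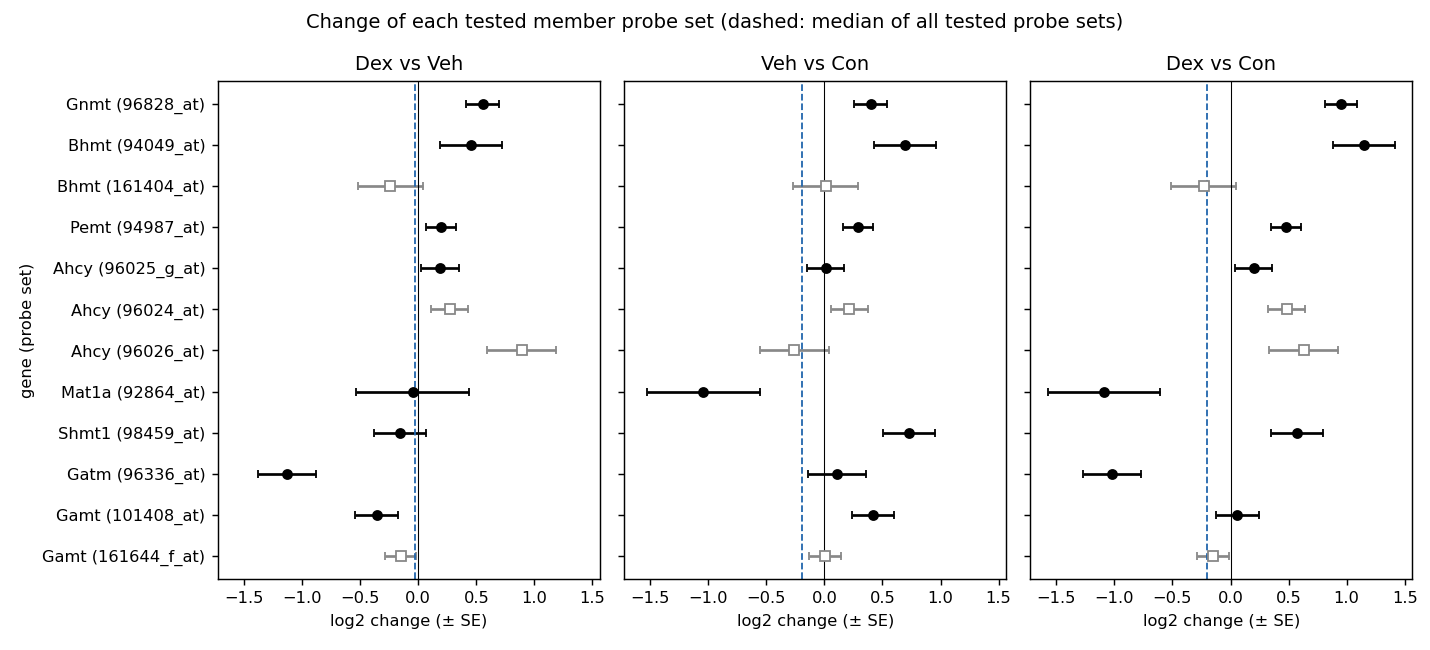
Log2 change with its SE for each of the 12 tested member probe sets in each of the 3 comparisons (filled circles: probe set that stands for the gene; open squares: other probe sets of the gene; dashed line: median of all tested probe sets). Gatm is the lowest point in Dex vs Veh, and the Bhmt probe sets give different values in Dex vs Con, 1.15 and -0.23.

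Shmt1, the cytosolic enzyme that interconverts serine and glycine and loads folate with a carbon unit, split the Dex group. Its intensity (98459_at) had a lowest value of 221.1, a median of 658.9 and a highest value of 971.4 in Dex livers. The values were 435.5, 710.7 and 920.9 in Veh livers, and 240, 406.9 and 619.9 in Con livers. Dex 1, 2 and 3 had 454.2, 221.1 and 389.2 and lay in the Con range or below it. The other 6 Dex livers had between 652.7 and 971.4, all above the highest Con liver.

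Over all 9 Dex livers the Dex-to-Con change of Shmt1 was 0.57 ± 0.22 and did not pass (adjusted p = 0.0753). Without Dex 1, 2 and 3 it was 0.96 ± 0.18 and passed (adjusted p = 0.00536). In Veh against Con it was 0.72 ± 0.22 (adjusted p = 0.0607), with all 9 Veh livers above the Con median and 6 above the highest Con liver. This difference passed when Dex 1, 2 and 3 were left out of the shared estimate of spread (adjusted p = 0.0109). In Dex against Veh the change was -0.15 ± 0.22 (adjusted p = 0.769), and 0.24 without Dex 1, 2 and 3. Leaving out Dex 2 alone, or Dex 3 alone, also made the Dex-to-Con change pass (adjusted p = 0.0147 and 0.0484), and the Veh-to-Con change passed without Dex 2, Veh 3, Veh 9 or Con 4 (0.0254, 0.0395, 0.0371 and 0.0499). A second Shmt1 probe set (104700_at) lay above the array median in 4 arrays and was not tested.

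Gamt, the methyltransferase that completes creatine, gave no call in any comparison. Its intensity (101408_at) had a lowest value of 357.3, a median of 822.2 and a highest value of 1119.3 in Dex livers. The values were 688.3, 1048.1 and 1657.6 in Veh livers, and 520.8, 750.6 and 1035.3 in Con livers. Dex 2 was the lowest liver of all, and the 3 groups overlapped. None of the changes passed: -0.36 ± 0.18 in Dex against Veh (adjusted p = 0.351, interval -0.73 to 0.02), 0.42 ± 0.18 in Veh against Con (0.163) and 0.06 ± 0.18 in Dex against Con (0.851). The other Gamt probe set (161644_f_at) followed the first across livers (r = 0.65, permutation p adjusted over 5 pairs = 0.0015). Its group changes were smaller in Dex against Veh (-0.15, limma adjusted p = 0.599) and in Veh against Con (0.00316, 0.992), so the 0.42 was not seen on it. In Dex against Con it gave -0.15 (0.471).

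Ahcy, the hydrolase that removes S-adenosylhomocysteine, has 3 probe sets. The brightest, 96025_g_at, had a lowest intensity of 4132.1, a median of 5207.1 and a highest of 10720 in Dex livers. The values were 3943.3, 5114.8 and 6801.9 in Veh livers, and 3916.5, 4971.1 and 7724 in Con livers. Dex 2 was the highest liver, and the groups otherwise overlapped. Its changes were 0.19 ± 0.16 in Dex against Veh (adjusted p = 0.587), 0.01 ± 0.16 in Veh against Con (0.977) and 0.20 ± 0.16 in Dex against Con (0.416). When Dex 1, 2 and 3 were left out they were 0.0313 against Veh and 0.0409 against Con, and after quantile normalization 0.0618 and -0.13. The probe set 96024_at, which followed it across livers (r = 0.88), gave 0.48 ± 0.16 in Dex against Con and passed (adjusted p = 0.0356). The third, 96026_at, gave 0.63 ± 0.30 (0.141). In Dex against Veh 96026_at gave 0.89 ± 0.30 (0.144), with 7 of 9 Dex livers above the highest Veh liver, and 96024_at gave 0.27 ± 0.16 (0.411), so the probe sets of this gene gave different sizes and, in Dex against Con, different calls.

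Mat1a makes S-adenosylmethionine from methionine in liver, and its probe set (92864_at) was dim. The intensity had a lowest value of 2.8, a median of 20.1 and a highest value of 61.6 in Dex livers. The values were 6.9, 27.9 and 40.5 in Veh livers, and 21.7, 48.6 and 88.6 in Con livers. It lay above the array median in 4 Dex, 6 Veh and 7 Con livers, and its group means of 4.40 in Dex and 4.45 in Veh were below the mean array median of 4.64, so these levels were not clearly above background. All 9 Veh livers lay below the Con median. The changes were -1.09 ± 0.48 in Dex against Con (adjusted p = 0.117), -1.04 ± 0.48 in Veh against Con (0.188) and -0.05 ± 0.48 in Dex against Veh (0.977), the last with an interval of -1.04 to 0.94. Without Veh 2, 4, 5 and 7 the Dex-to-Veh change was -0.56 and the Veh-to-Con change -0.53.

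**Figure D4:**
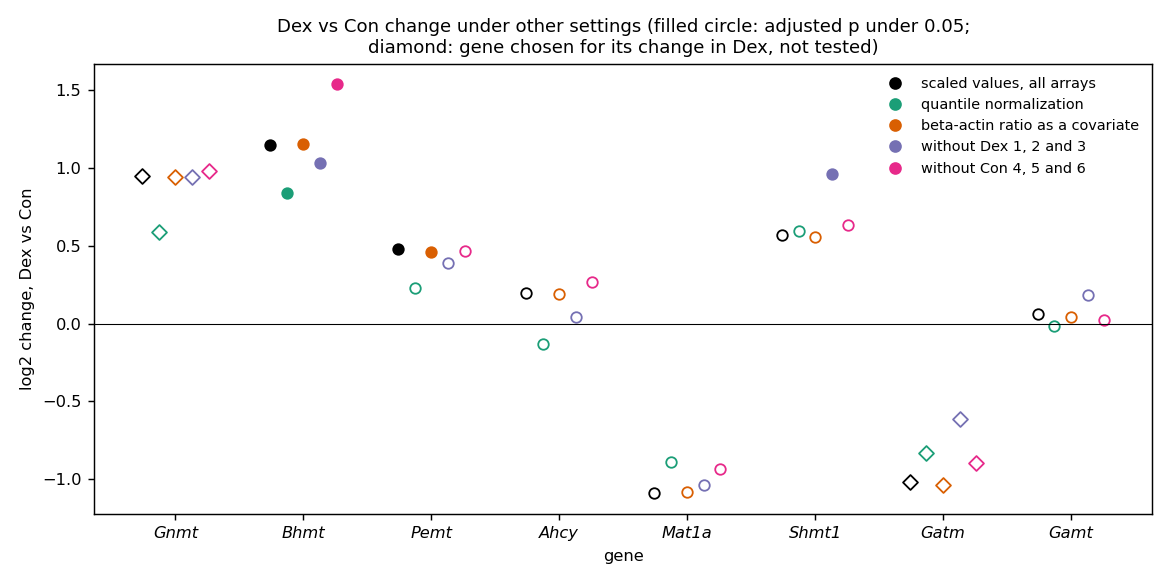
Dex-to-Con log2 change of each gene with the scaled values of all arrays, after quantile normalization, with the beta-actin 3' to 5' ratio as a covariate, and without Dex 1, 2 and 3 or Con 4, 5 and 6 (filled circles: adjusted p under 0.05; diamonds: Gnmt and Gatm, chosen for their change in Dex and not tested). Bhmt stays filled in each, Pemt in 2 of the 5, and Shmt1 is filled once, without Dex 1, 2 and 3.

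The members were also compared from liver to liver. Each value was taken minus its group mean, and the 28 pairs of the 8 genes were correlated over 27 arrays, which share 1 scaling factor per array across all genes. Pearson's r ran between -0.47 and 0.64, and 2 pairs passed (permutation tests with 100000 resamples, adjusted over 28 pairs). Gnmt and Bhmt had r = 0.55 (p = 0.00274, adjusted p = 0.0384; rho 0.53, adjusted p = 0.101), and 0.52 without the 2 livers farthest out. Gamt and Shmt1 had r = 0.64 (p = 0.00175, adjusted p = 0.0384; rho 0.44, adjusted p = 0.163), and 0.40 without the 2 farthest livers. Within Dex, Veh and Con, r was 0.68, 0.09 and 0.67 for Gnmt and Bhmt, and 0.66, 0.88 and 0.26 for Gamt and Shmt1. Neither pair passed on ranks. Gnmt and Ahcy passed on ranks (rho 0.62, adjusted p = 0.0266) but not on r (0.53, adjusted p = 0.132), with r = 0.57 without the 2 farthest livers.

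Gatm followed different genes from Gnmt. The genes with the highest r to Gatm over the 27 arrays, out of 5199, were the phospholipid acyltransferase Lpcat3 (0.69), the actin-binding thymosin Tmsb10 (0.69), Pter (0.68), the exporter Abcc5 (0.68) and Zfp954 (0.67). The lowest were the autophagy gene Map1lc3b (-0.75), Fkbp5 (-0.71), a chaperone gene known to be induced through the glucocorticoid receptor, and the lipid phosphatase Lpin1 (-0.70). Without Dex 1, 2 and 3 these values shrank to 0.38, 0.46, 0.45, 0.65 and 0.46, and to -0.50, -0.48 and -0.45, with the smallest loss for Abcc5. For Gnmt the highest were the cytochrome gene Cyp2d10 (0.80), the sterol carrier Scp2 (0.73), the glycolytic Pgk1 (0.72), the ribosomal Rpl8 (0.72) and Eng (0.71), and the lowest Cwc15 (-0.71), the ascorbate transporter Slc23a2 (-0.70) and Ap1ar (-0.70). When these livers were left out, the r of the first 5 lay between 0.73 and 0.83. These values carry no test, and the shared scaling of an array enters all of them.

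Enzymes that feed or drain the cycle were followed in 8 lists of 87 genes, of which 48 were tested. In Dex against Veh 0 of the 48 passed the limma test, and in Veh against Con 2 did, both lower in Veh (4.17%, beside 3.86% of all probe sets called and 2.67% called lower). In Dex against Con 14 passed, 4 higher and 10 lower (29.2%, beside 16.4% of all probe sets called, 13.2% called lower and 3.26% called higher). Each list gene stands by its brightest tested probe set, unlike the share over all probe sets, and the difference between these shares was not tested. At an unadjusted p under 0.05 there were 12 of the 48 in Dex against Veh, 19 in Veh against Con and 19 in Dex against Con, against 15.2%, 23.6% and 31.5% of all probe sets. The median change of the 48 was 0.02, -0.18 and -0.10 in the same comparisons, beside -0.03, -0.19 and -0.20 over all probe sets.

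Of the genes around cysteine, 2 rose and 3 fell among 8 tested. Gclc and Gclm, the catalytic and modifier subunits of the enzyme that starts glutathione synthesis, fell by 1.23 ± 0.23 and 0.74 ± 0.23 (log2; adjusted p = 9.36e-04 and 0.0302) in Dex against Con. Sqor, which oxidises hydrogen sulfide in mitochondria, fell by 0.72 (0.00908). Cdo1, the dioxygenase that opens the route to taurine and sulfate, rose by 0.54 ± 0.14 (0.0105), and the sulfurtransferase Tst rose by 0.55 ± 0.18 (0.0334).

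Of 4 other methionine cycle genes, Mat2b, a regulatory subunit of methionine adenosyltransferase, fell by 0.78 ± 0.20 (adjusted p = 0.0104), and Ahcyl1, a relative of Ahcy, rose by 0.32 (0.0447). Among 8 genes of choline, sarcosine and glycine breakdown, Dmgdh, which demethylates the dimethylglycine left by Bhmt, rose by 0.42 (0.0498). Dld, a subunit shared by the glycine cleavage system and other dehydrogenases, fell by 0.94 ± 0.21 (0.00371). In methionine salvage and polyamine use, 2 of 5 genes fell. Adi1, a salvage dioxygenase, fell by 1.42 ± 0.25 (adjusted p = 6.78e-04), and the spermidine acetyltransferase Sat1 fell by 0.67 ± 0.20 (0.0205). Adi1 also fell in Veh against Con, by 1.37 ± 0.25 (0.00402).

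Of 6 other methyltransferases, the arginine methyltransferase Prmt1 passed as lower in Dex against Con (adjusted p = 0.00392), with means of 3.67 in Dex and 5.30 in Con. Icmt, which methylates prenylated proteins, passed as lower in Veh against Con (0.00925), with means of 3.95 in Veh and 5.32 in Con. Both lower means are below the mean array median of 4.64 and not clearly above background. Near background the sizes of these differences, -1.63 ± 0.36 for Prmt1 and -1.38 ± 0.29 for Icmt (log2), are not reliable. Pcyt1a, the rate-setting enzyme of the CDP-choline route to phosphatidylcholine, fell by 0.67 (0.0411), 1 of 5 genes of that route, in the comparison in which Pemt rose. Among 7 genes of creatine use and of arginine and ornithine supply, the urea cycle enzyme Otc fell by 0.40 (0.0429). Ass1 and Asl, which make arginine, and Arg1, which breaks it down, had changes of -0.06, 0.34 and 0.19 that did not pass. Of 5 folate genes 0 passed in any comparison, with 1 at an unadjusted p under 0.05 in Dex against Veh, 2 in Veh against Con and 0 in Dex against Con, and the smallest p were those of Mthfd2 (adjusted p = 0.205 in Dex against Veh, with means of 4.77 in Dex and 3.55 in Veh, the second not clearly above background) and Fpgs (0.55, adjusted p = 0.143 in Veh against Con). Of the 14 genes 6 also passed when Dex 1, 2 and 3 were left out: Mat2b, Dld, Gclc, Sqor, Adi1 and the dim Prmt1, all lower in Dex. The 4 that were higher did not pass then, with adjusted p between 0.0882 for Dmgdh and 0.165 for Ahcyl1. The change of Gclm was -0.27 (0.369) and that of Cdo1 0.30 (0.130).

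**Figure D5:**
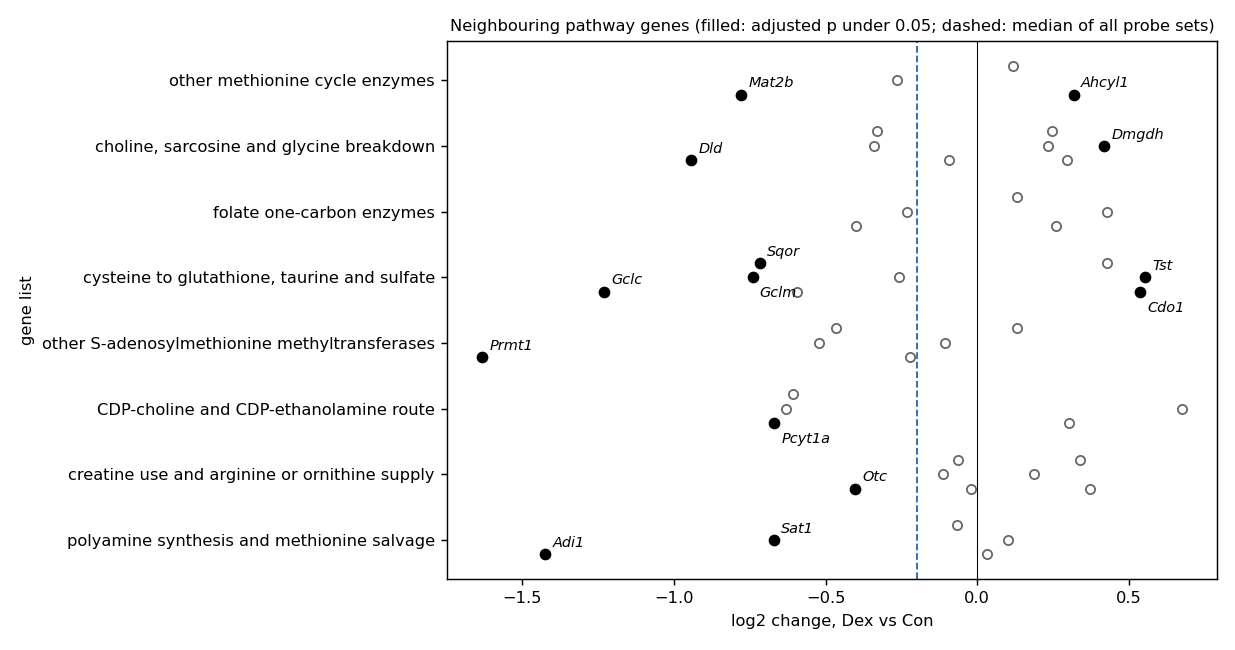
Dex-to-Con log2 change of the 48 tested genes of the 8 neighbouring pathway lists, 1 row per list (filled: adjusted p under 0.05, with names; dashed line: median of all tested probe sets, -0.20). Filled points lie on both sides of 0, with 10 lower and 4 higher in Dex; Prmt1, the lowest, was not clearly above background in Dex.

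Cell type markers that moved in the same comparisons are given beside these results. Of 7 tested hepatocyte markers, 4 rose in Dex against Con: Alb by 0.61, Apoa1 by 0.67, Tat by 1.18 and Cps1 by 0.75 (adjusted p between 0.00606 and 0.0276). All 4 are among the bright probe sets, of which 28.7% were called higher there, and Fgb of the same list had -0.39 and did not pass. The summed intensity of the 7 hepatocyte markers ran between 44463.7 and 110444 in Dex, 39722.4 and 81926 in Veh, and 37447.7 and 66716.8 in Con. Of 11 tested macrophage and Kupffer cell markers, Cd5l, Mrc1 and Ctss fell in Dex against Con, where 13.2% of all probe sets were called lower. Above 0 there was 1 of the 11, beside 32.6% of all probe sets. In Dex against Veh 0 of the 11 were above 0, beside 46.6% of all, and 0 passed. The sum over 12 ran between 643.4 and 1757.8 in Dex, 949.2 and 3385.8 in Veh, and 1022.3 and 2049.2 in Con. Also lower in Dex against Con were the stellate cell marker Reln (-0.93), the endothelial Cdh5 (-0.63) and the red cell Alas2 (-1.97). Each was the only call of its list, of 5, 3 and 3 tested markers. Above 0 were 3 of the stellate, 1 of the endothelial and 1 of the red cell markers. The hepatocyte marker Hnf4a (-1.16, adjusted p = 0.0281), Reln (-0.78) and the neutrophil marker Ly6g passed as lower in Veh against Con, Ly6g with a Veh mean not clearly above background. Each was the only call of its list there. Of the tested markers, 5 of 7 hepatocyte, 4 of 5 stellate and 0 of 2 neutrophil markers were above 0 in Veh against Con. The part of these markers in the members' values was not tested. Kidney and pancreas, where Gatm is abundant, were checked too. Of 7 kidney tubule markers all 7 lay on average below the array median and 0 were tested. The sum of 8 exocrine pancreas markers overlapped between groups, at 475.4 to 1088.3 in Dex, 426.8 to 786.7 in Veh and 546.2 to 886.2 in Con.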

How the data were processed

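Per the labels, RNA came from Trizol and RNeasy preparations and standard Affymetrix targets. The authors deposited a linear intensity for every probe set on every array; trimmed means of 100.1 to 100.2 (2% trimmed at each end) show that the authors had scaled each array. The sources used here do not give the probe summary software or the scaling target. Intensities under the 10th percentile of positive values (2.6) were raised to that value, and the deposited intensities were put on a log2 scale without further scaling. Of 12488 probe sets, 66 are controls, and 6784 above the array median in at least 9 of 27 arrays were tested. The annotation gives 1 symbol to 10855 probe sets, several to 396 and none to 1237, and no gene was named from the last 2 kinds. A gene's brightest tested probe set by mean log2 intensity stood for it.

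The 3 group means came from 1 limma fit of all 27 arrays (limma version 3.58.1, R version 4.3.3, lmFit, eBayes with a mean trend, 24 residual degrees of freedom, two-sided, Benjamini-Hochberg over 6784 probe sets, threshold 0.05). The method was tested on simulated data with independent normal noise for each probe set. These data held no livers that stood apart and no shift with brightness, so the test does not cover them. Changes are log2 of the first group minus the second, with SE. Correlations used permutation tests (Python 3.11.15, scipy 1.17.1). The number of arrays limits the precision. The labels name separate mice but no batch. Replicate numbers did not pair the livers: correlations of same-numbered deviations ran between -0.20 and 0.19. The alternatives were quantile normalization, other floors and filters, no trend, the beta-actin ratio as a covariate, a replicate block, 2 groups only, other probe sets of a gene, and arrays left out; recounting the pathway lists under each was chosen after seeing the data.

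The members, lists and sets of arrays left out were chosen with earlier results of these data known. All members were named, with every pathway list gene past the threshold (otherwise up to 2 with the smallest p in their list), and the 5 genes most and 3 least like Gatm and Gnmt. Arg1, Ass1 and Asl were named after their values were seen, for their place in arginine synthesis and breakdown.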

Additional observations from a re-analysis of the deposited data

Results flagged for a closer look

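In 3 of 36 combinations of probe set and group, 1 liver lay so far from the nearest of the other 8 that the gap, as a share of the group's range, exceeded Dixon's limit for 9 values. Chance gives about 1 such liver in 20 groups. The lowest Gatm level in Con was 5.20 (log2 intensity, Con 2), and without Con 2 the Veh-to-Con change of Gatm was -0.0380. The lowest Gamt level in Dex was 8.48 (Dex 2), on the probe set 101408_at. The highest Pemt level in Con was 11.02 (Con 8).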

How the results depend on the processing

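Of the calls on members not chosen for their change, Bhmt in Dex against Con held whichever of the 27 arrays was left out (adjusted p up to 0.0140) and Pemt likewise (up to 0.0297). The count of members past the test there was 2, and 1 after quantile normalization or without Con 4, 5 and 6, and 2 to 3 with 1 array left out; the cause was not tested. Without Dex 1, 2 and 3 it was 2 again, but Bhmt and Shmt1. In Veh against Con the count was taken over all 8 tested members, with Gnmt and Gatm included, and was 0. It was 1 with the replicate block, without Dex 1, 2 and 3 or without Con 4, 5 and 6. With only the 2 groups it was 2, Shmt1 and the chosen gene Gnmt, and with 1 array left out it was 0 to 1. The gained call with the block was Shmt1 (adjusted p = 0.0410). Replicate numbers did not pair the livers. Of all probe sets, 18 passed in Dex against Veh. This was 7 with no filter or without Con 4, 5 and 6, 5 without the mean trend, 3 with the replicate block, 1 with the beta-actin covariate, with only the 2 groups, without Dex 1, 2 and 3 or without Veh 2, 4, 5 and 7, and 4 to 124 with 1 array left out. In Veh against Con 262 passed, against 85 after quantile normalization, 116 with no filter, 33 with the beta-actin covariate, 656 with only the 2 groups, 453 without Dex 1, 2 and 3, 3 without Veh 2, 4, 5 and 7, 158 without Con 4, 5 and 6, and 85 to 586 with 1 array left out. In Dex against Con 1115 passed, against 659 after quantile normalization, 405 without Dex 1, 2 and 3, 628 without Con 4, 5 and 6, and 785 to 1488 with 1 array left out. Of the pathway list genes, 0 passed in Dex against Veh, 1 with a floor at the 20th percentile or the filter in 18 arrays, and 0 to 3 with 1 array left out. In Veh against Con 2 passed, 1 after quantile normalization, 7 with only the 2 groups, 5 without Dex 1, 2 and 3, 0 without Veh 2, 4, 5 and 7, 4 without Con 4, 5 and 6, and 2 to 3 with 1 array left out. In Dex against Con 14 passed, 9 after quantile normalization or with no filter, 7 without Dex 1, 2 and 3, and 8 to 16 with 1 array left out. Signs turned in these cases. Mat1a in Dex against Veh was 0.0595 with the higher floor, 0.00931 with the beta-actin covariate, 0.00287 without Dex 1, 2 and 3, -0.56 without Veh 2, 4, 5 and 7, and -0.26 to 0.32 with 1 array left out; Mat1a has no value under the filter in 18 arrays. Shmt1 in Dex against Veh was 0.24 without Dex 1, 2 and 3 and -0.25 to 0.0214 with 1 array left out. The second Bhmt probe set gave -0.24 in Dex against Veh and -0.23 in Dex against Con. Ahcy in Veh against Con was -0.19 after quantile normalization, -0.26 on 96026_at and -0.0409 to 0.0844 with 1 array left out, and -0.13 in Dex against Con after quantile normalization. Gamt in Dex against Con was -0.0179 after quantile normalization, -0.15 on its other probe set and -0.00619 to 0.20 with 1 array left out, and Gatm in Veh against Con ran between -0.0380 and 0.18 there. The correlation of Gnmt with Gatm in Dex was 0.21 after quantile normalization and -0.30 to 0.0651 with 1 array left out (0.0651 without Dex 8), and in Con -0.84 to -0.31. It has no value in Veh without 4 of its arrays. Causes of these turns were not tested. Signal near background limits Mat1a, Prmt1, Icmt and Mthfd2.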
